A study of Mus musculus with 7 samples.

Results

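Imprinted growth genes are a group of 10 mouse genes, each expressed mainly from the copy inherited from 1 parent: H19, Igf2, Igf2r, Dlk1, Meg3, Grb10, Ndn, Peg3, Plagl1 and Cdkn1c. They were taken by gene symbol from the deposited table of read counts, and all 10 were found among its 23284 genes. The libraries came from hematopoietic stem cells (HSCs) of the bone marrow of C57BL/6 mice in which green fluorescent protein (GFP) reports on the histidine decarboxylase gene Hdc. The bright fraction, Hdc-GFPhi (3 libraries), was set against the dim fraction, Hdc-GFPlo (4 libraries), with 500 sorted cells per library. For replicate 4 of Hdc-GFPlo the label gives the fraction as GFP negative. Ages and treatments are not given. Whether replicates came from separate animals is not stated, and p-values then reflect only sample-to-sample spread, possibly of technical origin. In such bulk samples, fewer cells that express a gene and less RNA per cell cannot be told apart.

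In background, imprinted genes lie in clusters where DNA methylation set in the egg or sperm decides which parental copy is read. Many of the paternally expressed members, such as the growth factor gene Igf2, promote growth in the mouse fetus, while maternally expressed members such as H19, Igf2r, Grb10 and Cdkn1c restrain it. In adult mouse bone marrow the group is known for genes that HSCs express and that bear on their quiescence, Cdkn1c and the H19-Igf2 region among them.

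The promoters of 4 tested members are shown because they differ widely in content of CpG, the dinucleotide whose methylation carries imprinting marks. The windows were chosen by gene start, and whether they hold imprinting marks was not examined. The sequences are the 250 bases before the most upstream RefSeq start (build GRCm38.p6), 5′ to 3′ on the gene's strand, with every CG dinucleotide in capitals.
Grb10, chr11:12037421-12037670, minus strand: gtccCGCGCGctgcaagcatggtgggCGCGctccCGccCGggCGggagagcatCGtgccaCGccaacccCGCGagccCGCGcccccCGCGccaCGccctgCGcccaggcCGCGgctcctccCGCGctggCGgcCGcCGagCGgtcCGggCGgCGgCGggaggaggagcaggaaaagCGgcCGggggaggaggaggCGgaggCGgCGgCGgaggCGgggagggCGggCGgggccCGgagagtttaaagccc
Igf2r, chr17:12769707-12769956, minus strand: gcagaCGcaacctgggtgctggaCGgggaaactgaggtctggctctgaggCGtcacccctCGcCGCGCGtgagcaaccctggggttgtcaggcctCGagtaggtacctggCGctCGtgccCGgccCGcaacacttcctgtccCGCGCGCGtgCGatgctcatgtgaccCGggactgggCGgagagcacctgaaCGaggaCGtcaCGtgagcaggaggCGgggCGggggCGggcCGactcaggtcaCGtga
Dlk1, chr12:109452573-109452822, plus strand: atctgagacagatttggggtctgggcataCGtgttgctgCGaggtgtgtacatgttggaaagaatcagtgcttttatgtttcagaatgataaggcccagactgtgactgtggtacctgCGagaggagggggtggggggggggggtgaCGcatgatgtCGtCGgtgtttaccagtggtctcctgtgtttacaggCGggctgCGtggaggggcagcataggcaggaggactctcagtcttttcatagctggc
Ndn, chr7:62348027-62348276, plus strand: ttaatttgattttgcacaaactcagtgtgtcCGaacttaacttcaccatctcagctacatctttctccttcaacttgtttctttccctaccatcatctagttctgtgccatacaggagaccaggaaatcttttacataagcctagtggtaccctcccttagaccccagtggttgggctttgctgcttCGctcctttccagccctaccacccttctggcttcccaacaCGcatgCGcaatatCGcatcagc
Grb10 had 40 CG dinucleotides in this window, and 1.31% of 32851 RefSeq promoter windows of the same length held at least as many. Igf2r had 27, a count reached by 8.56% of windows, Dlk1 had 8 (43.0%) and Ndn had 5 (55.6%). The median window held 6. CG reads the same on both strands, so these counts hold for either strand. No methylation was measured, and the counts describe the sequence only.

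Only 5 of the 10 members passed the filter on low counts and were tested: Grb10, Ndn, Cdkn1c, Igf2r and Dlk1. None of these 5 passed edgeR's quasi-likelihood test with Benjamini-Hochberg adjustment over all 12917 genes tested, a test that called 0% of the genes. At an unadjusted edgeR p under 0.05 there were again 0 of 5, against 12.2% of all genes tested. The groups overlapped for all 5, whereas they did not overlap for 11.9% of all genes tested (6.02% with every Hdc-GFPhi library above and 5.87% with every one below the Hdc-GFPlo libraries). DESeq2 called 0 of the 4 members to which it gave an adjusted p (Dlk1 had none), against 3.48% of genes, and Igf2r had an unadjusted DESeq2 p of 0.0374 (adjusted p = 0.263). The median log2 fold change of the 5 was -0.04, beside 0.01 over all genes tested. Igf2r had the largest difference, with lower values in Hdc-GFPhi. The other 5 members (H19, Igf2, Meg3, Peg3 and Plagl1) were at or near 0 counts in most libraries.

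**Figure D1:**
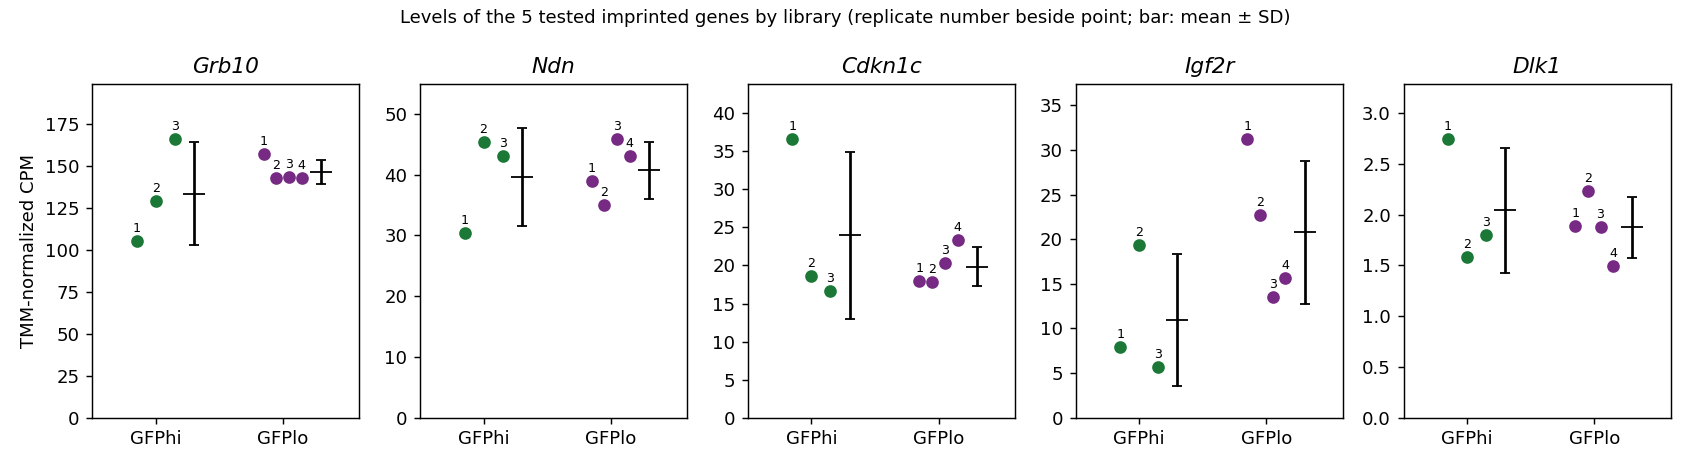
Levels in CPM (linear axis from 0) of the 5 tested imprinted genes, with 1 point per library, Hdc-GFPhi left of Hdc-GFPlo, replicate numbers beside the points, and bars for mean ± SD (n = 3 and n = 4). The groups overlap for every gene, Hdc-GFPhi replicate 1 is the lowest library for Grb10 and Ndn and the highest for Cdkn1c and Dlk1, and Igf2r is lowest in Hdc-GFPhi replicates 1 and 3.

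Grb10, whose product is an adaptor that binds insulin and IGF receptors and dampens their signal, was counted 2382 to 3502 times per library. Its level in CPM, read counts scaled to library size with TMM factors, was 105, 129 and 166 CPM in Hdc-GFPhi replicates 1 to 3, against 157, 143, 144 and 143 CPM in Hdc-GFPlo replicates 1 to 4. The Hdc-GFPhi libraries spanned the whole range and the Hdc-GFPlo libraries lay within it. Means were 134 ± 30.6 CPM in Hdc-GFPhi and 147 ± 7.17 CPM in Hdc-GFPlo (SD, n = 3 and n = 4). The edgeR log2 fold change was -0.14 (SE 0.14, adjusted p = 0.738, with a 95% interval of -0.45 to 0.18). It was 0.010 without Hdc-GFPhi replicate 1 and -0.33 without Hdc-GFPhi replicate 3 (edgeR adjusted p = 0.253).

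Igf2r encodes the receptor that, in mammals, takes IGF2 from the cell surface to the lysosome and also carries lysosomal enzymes tagged with mannose 6-phosphate. Its counts were 178, 465 and 119 in Hdc-GFPhi replicates 1 to 3, against 644, 427, 302 and 323 in Hdc-GFPlo replicates 1 to 4. These equal 7.87, 19.3 and 5.64 CPM in Hdc-GFPhi and 31.2, 22.7, 13.5 and 15.6 CPM in Hdc-GFPlo. Replicates 1 and 3 of Hdc-GFPhi lay below every Hdc-GFPlo library, and replicate 2 of Hdc-GFPhi lay above replicates 3 and 4 of Hdc-GFPlo. Means were 10.9 ± 7.35 CPM in Hdc-GFPhi and 20.8 ± 8.01 CPM in Hdc-GFPlo (SD, n = 3 and n = 4), a ratio of 0.528. The difference did not pass (edgeR log2 fold change -0.92, SE 0.45, adjusted p = 0.442, unadjusted p = 0.0670, with a 95% interval of -1.92 to 0.08). The value was -1.62 without Hdc-GFPhi replicate 2 (edgeR adjusted p = 0.336) and -0.62 without Hdc-GFPhi replicate 3 (edgeR adjusted p = 0.562).

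Igf2r was also the most variable of the tested members. Its coefficient of variation over the 7 libraries was 53.2%, against a median of 23.3% for the 1731 tested genes within 1.5-fold of its level. Airn, the antisense RNA that silences the paternal copy of Igf2r in mouse, starts inside the Igf2r gene. Airn had 18, 5 and 11 counts in Hdc-GFPhi replicates 1 to 3 and 8, 23, 20 and 9 counts in Hdc-GFPlo replicates 1 to 4 (edgeR log2 fold change -0.53, SE 0.999, adjusted p = 0.875). The kit does not mark strand, so reads of the pair cannot be told apart where they overlap. In the GENCODE M21 annotation no exon of another gene overlaps an Igf2r exon, while exons of opposite-strand genes overlap those of Igf2 (Igf2os), H19, Meg3, Plagl1 and Cdkn1c, whose counts are uncertain to that extent.

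Igf2, the gene of the growth factor that Igf2r clears, was close to the detection limit in every library. Its counts were 6, 5 and 7 in Hdc-GFPhi and 7, 11, 8 and 1 in Hdc-GFPlo, or at most 0.332 CPM in Hdc-GFPhi and 0.586 CPM in Hdc-GFPlo. A count of 0 allows up to 3 counts, which equals 0.125 to 0.160 CPM in these libraries. The counts of Igf2 were spread over all 7 libraries, with a chi-square of 1.78 per degree of freedom, where pure counting noise gives values around unity. A difference of this gene between the fractions was not detectable at this depth.

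H19, the maternally expressed long noncoding RNA gene next to Igf2, had 16, 0 and 1 counts in Hdc-GFPhi replicates 1 to 3 and 0, 64, 1 and 0 counts in Hdc-GFPlo replicates 1 to 4. A single library, Hdc-GFPlo replicate 2, held 78.0% of its counts, and 3 of the 7 libraries had none. H19 RNA is also the precursor of miR-675, whose mature forms (RefSeq, build GRCm38.p6) are shown to identify that product, with the seed, bases 2 to 8, in capitals.
mmu-miR-675-5p, chr7:142577112-142577133, minus strand: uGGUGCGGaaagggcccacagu
mmu-miR-675-3p, chr7:142577078-142577099, minus strand: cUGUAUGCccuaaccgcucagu
Levels of the mature miRNA were not analysed here.

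The zinc finger gene Peg3, paternally expressed, followed the same libraries as H19. It had 39, 2 and 0 counts in Hdc-GFPhi replicates 1 to 3 and 0, 57, 0 and 0 counts in Hdc-GFPlo replicates 1 to 4. Plagl1, which encodes a zinc finger regulator of other imprinted genes in mouse, had 39 counts in Hdc-GFPhi replicate 1 and 0 in each of the other 6 libraries. Meg3, the maternally expressed noncoding RNA gene of the Dlk1 cluster, had 17, 4 and 0 counts in Hdc-GFPhi and 6, 1, 2 and 0 counts in Hdc-GFPlo. For H19, Peg3, Plagl1 and Meg3 the counts therefore sat mainly in Hdc-GFPhi replicate 1 or Hdc-GFPlo replicate 2, and a fold between the fractions would rest on 1 library (Plagl1, Meg3) or on 1 library in each fraction (H19, Peg3). Of the 1235 other genes with 30 to 98 counts in all, the range of these low members, 4.53% were counted in 1 library only. The library with the most counts held a median of 45.5% of a gene's counts.

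**Figure D2:**
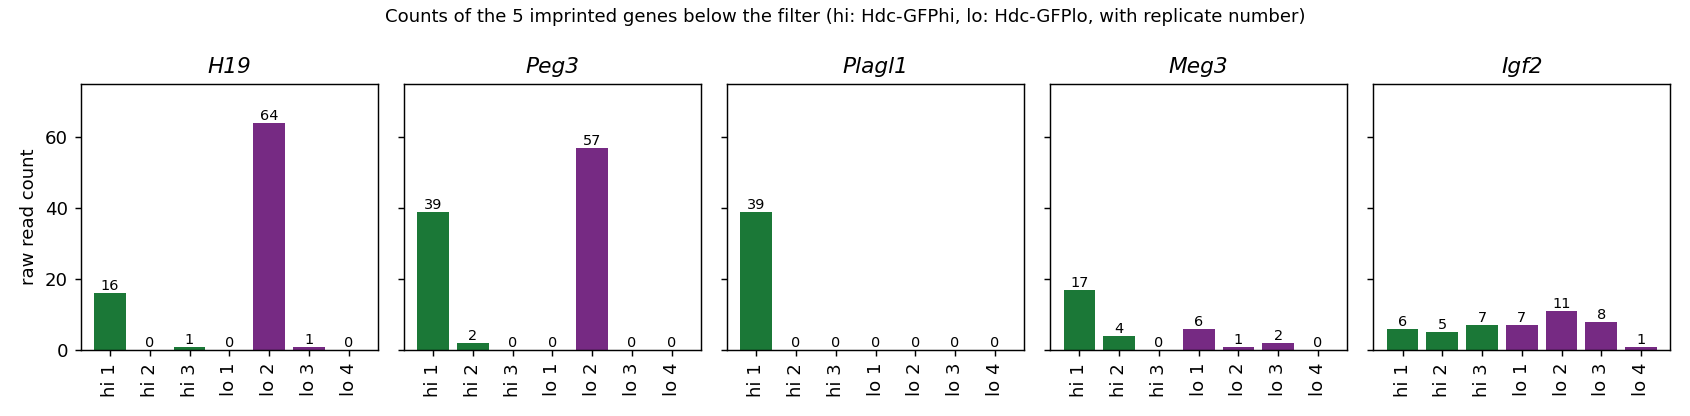
Raw read counts (linear axis from 0) of the 5 imprinted genes that did not pass the filter, with 1 bar per library, Hdc-GFPhi (hi) left of Hdc-GFPlo (lo). H19 and Peg3 are highest in Hdc-GFPlo replicate 2 (64 and 57 counts), Plagl1 is counted only in Hdc-GFPhi replicate 1 (39 counts), and Igf2 has 1 to 11 counts in every library.

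Some markers of other cell types were high in these libraries and others were not. In Hdc-GFPlo replicate 2, 11 of 14 stromal and osteoblast markers had at least 1 count, against 7, 9 and 9 in Hdc-GFPhi replicates 1 to 3 and 4 to 8 in the other Hdc-GFPlo libraries. Lepr, the leptin receptor gene of marrow stroma, was counted 36 times in that library and at most 1 time in any other. Dcn (decorin) was counted 49 times there and at most 9 times elsewhere, and Postn (periostin) 34 times and at most 1 time elsewhere. The imprinted transporter gene Slc38a4 was counted 78 times there and 0 times elsewhere. Col3a1, Pdgfra, Fbln1 and Kitl were also highest there, with 2, 4, 135 and 32 counts. Other stromal markers were not. Col1a2 had its lowest level of all 7 libraries in Hdc-GFPlo replicate 2 (38 counts, 2.02 CPM). Pdgfrb was at 14.9 CPM there, the lowest of the Hdc-GFPlo libraries, and at 11.7 CPM in Hdc-GFPhi replicate 2. Cxcl12 was highest in Hdc-GFPhi replicate 2 (904 counts, against 43), and Col1a1 was highest in Hdc-GFPlo replicate 4 (34 counts, against 3). The summed level of the 14 markers was 31.6 to 56.8 CPM in Hdc-GFPhi and 34.9 to 56.3 CPM in Hdc-GFPlo, where replicate 2 had the lowest sum (34.9 CPM), and Sp7 was at 0. In Hdc-GFPhi replicate 1, which held the counts of Plagl1, the eosinophil granule genes Prg2 and Epx were at 519.8 and 83.9 CPM, against at most 3.65 and 0 CPM in the other Hdc-GFPhi libraries and at most 8.26 and 5.18 CPM in Hdc-GFPlo. These genes made up most of the summed level of 8 mast cell, basophil and eosinophil markers, which was 617 CPM there, against 16.5 to 17.6 CPM in the other Hdc-GFPhi libraries and 16.7 to 32.0 CPM in Hdc-GFPlo. The mast cell marker Cpa3 was at 10.7 CPM there, within the range of the other libraries, and Fcer1a, Ms4a2 and Cma1 were at 0 in that library. Of the same list, Prss34 had 33 counts there and 0 elsewhere. Mcpt8 had 19 counts there, against 35 in Hdc-GFPlo replicate 3. The 7 myeloid progenitor markers summed to 2723 CPM in Hdc-GFPhi replicate 1, of which Mpo made up 1725 CPM. The sums were 447 and 955 CPM in the other Hdc-GFPhi libraries and 148 to 1487 CPM in Hdc-GFPlo. Mpo, Elane, Prtn3, Ctsg, Ms4a3 and Clec12a were each highest in Hdc-GFPhi replicate 1. Cebpe was not, with 2.61 CPM there against 4.99 and 5.17 CPM in the other Hdc-GFPhi libraries. Elane and Ctsg had 0 counts in Hdc-GFPlo replicate 4. The part of these cell types in the counts of the imprinted genes was not tested. All 11 HSC markers were tested, none was at 0 and 0 passed over all genes. Their summed level was lower in every Hdc-GFPhi library (3224 to 3686 CPM) than in every Hdc-GFPlo library (3883 to 4025 CPM). At an unadjusted edgeR p under 0.05, 1 was higher and 2 were lower in Hdc-GFPhi (4.92% and 7.31% of all genes tested were). Kit was lower in Hdc-GFPhi (means 1198 against 1590 CPM), while Ctnnal1 was higher (77.8 against 61.0 CPM).

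Dlk1, a paternally expressed transmembrane protein gene of the Notch ligand family, was low but even. It had 62, 38 and 38 counts in Hdc-GFPhi replicates 1 to 3 and 39, 42, 42 and 31 counts in Hdc-GFPlo replicates 1 to 4, or 1.58 to 2.74 CPM in Hdc-GFPhi and 1.498 to 2.24 CPM in Hdc-GFPlo. The highest and the lowest library differed by less than a factor of 2. Its coefficient of variation was 21.8%, and 2.77% of the 794 tested genes within 1.5-fold of its level varied less (their median was 60.4%). Means were 2.041 ± 0.617 CPM in Hdc-GFPhi and 1.87 ± 0.302 CPM in Hdc-GFPlo (SD, n = 3 and n = 4), with an edgeR log2 fold change of 0.12 (SE 0.57, adjusted p = 0.949, with a 95% interval of -1.16 to 1.40). The value was -0.15 without Hdc-GFPhi replicate 1. In the same cluster Rian had 13 counts in Hdc-GFPhi replicate 3, 2 in Hdc-GFPlo replicate 1 and 0 elsewhere, and Rtl1, Dio3 and Mirg were listed at 0 in all libraries.

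Cdkn1c, the gene of the cyclin-dependent kinase inhibitor p57, had 827, 449 and 350 counts in Hdc-GFPhi replicates 1 to 3 and 371, 334, 455 and 484 counts in Hdc-GFPlo replicates 1 to 4. On the CPM scale these were 36.6, 18.7 and 16.6 in Hdc-GFPhi and 18.0, 17.8, 20.3 and 23.4 in Hdc-GFPlo. Replicate 1 of Hdc-GFPhi stood above all other libraries, and replicate 3 of the same group was the lowest of all 7. Means were 23.9 ± 10.99 CPM in Hdc-GFPhi and 19.9 ± 2.61 CPM in Hdc-GFPlo (SD, n = 3 and n = 4). The edgeR log2 fold change was 0.27 (SE 0.28, adjusted p = 0.732, with a 95% interval of -0.35 to 0.89). Without Hdc-GFPhi replicate 1, where Prg2, Epx and the summed myeloid progenitor level were highest, it was -0.17 (edgeR adjusted p = 0.884). In the same imprinted cluster Phlda2, a maternally expressed inhibitor of placental growth, had 18.5 ± 3.95 CPM in Hdc-GFPhi and 14.1 ± 2.76 CPM in Hdc-GFPlo (SD, n = 3 and n = 4), with an edgeR log2 fold change of 0.39 (SE 0.23, adjusted p = 0.529). Kcnq1ot1, the noncoding RNA that silences this cluster on the paternal copy, varied widely within both groups. It had 931, 1001 and 406 counts in Hdc-GFPhi and 1190, 563, 666 and 281 counts in Hdc-GFPlo (edgeR log2 fold change 0.06, SE 0.43, adjusted p = 0.972).

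Other genes of the G1 phase, in which p57 acts, were set beside it. Of 21 genes listed for the passage through G1 (CDK inhibitors, kinases, cyclins, retinoblastoma and E2F family genes and the chaperone gene Hspa8), 19 were tested, and 0 passed over all genes. At an unadjusted edgeR p under 0.05, 2 were higher (4.92% of all genes tested were) and 3 were lower in Hdc-GFPhi (7.31% of all genes tested were), and the median log2 fold change was 0.08. The 3 with the smallest p all had lower values in Hdc-GFPhi: Rbl1, a relative of the retinoblastoma protein (75.7 ± 22.9 CPM in Hdc-GFPhi and 131 ± 23.1 CPM in Hdc-GFPlo), Ccne2, a cyclin E gene (17.3 ± 2.94 CPM in Hdc-GFPhi and 28.1 ± 5.95 CPM in Hdc-GFPlo), and Cdkn2c, the inhibitor p18 (11.6 ± 0.881 CPM in Hdc-GFPhi and 18.5 ± 3.27 CPM in Hdc-GFPlo). The CIP/KIP relatives of Cdkn1c did not pass either, with edgeR log2 fold changes of 0.22 for Cdkn1a (SE 0.36) and 0.37 for Cdkn1b (SE 0.27). A list of 32 mitosis genes had lower values for all 32 tested (median log2 fold change -0.59, 0 passing over all genes), and 24 of them were lower at an unadjusted edgeR p under 0.05, against 7.31% of all genes tested. The smallest p-values were those of Prc1, Hmmr and Cdk1, with log2 fold changes of -0.89, -0.75 and -0.56. Its summed level was 2800 to 3420 CPM in Hdc-GFPhi and 3508 to 5484 CPM in Hdc-GFPlo. The summed level was lowest in Hdc-GFPhi replicate 1 (2800 CPM), the library with the highest Cdkn1c level. Hdc-GFPhi replicate 3, with the lowest Cdkn1c level of all 7 libraries (16.6 CPM), summed to 3420 CPM, below every Hdc-GFPlo library. A relation between the 2 was not tested. Neutrophil and monocyte markers and megakaryocyte markers were looked at as well, and 0 of them passed over all genes. Of 13 neutrophil and monocyte markers, 7 were higher in Hdc-GFPhi at an unadjusted edgeR p under 0.05 (4.92% of all genes tested were). Their summed levels overlapped, with 6030 to 8302 CPM in Hdc-GFPhi and 2798 to 6930 CPM in Hdc-GFPlo. No marker of the list was at 0 in every library. Mmp8 had 0 counts in Hdc-GFPlo replicate 4, and Ccr2 had 0 in Hdc-GFPlo replicates 1 and 4. Of 8 tested megakaryocyte markers 3 were higher at the same threshold, against the same share of all genes. The summed levels of this list also overlapped, with 939 to 1300 CPM in Hdc-GFPhi and 654 to 996 CPM in Hdc-GFPlo, and Gp6 was at 0. The part of these cell types in the levels of the imprinted and cell cycle genes was not tested.

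Ndn encodes necdin, a paternally expressed protein of the MAGE family that binds E2F1 and p53 and restrains the cell cycle. Its levels were 30.5, 45.4 and 43.1 CPM in Hdc-GFPhi replicates 1 to 3, against 38.9, 35.1, 45.8 and 43.1 CPM in Hdc-GFPlo replicates 1 to 4, from 659 to 1091 counts per library. The lowest library was Hdc-GFPhi replicate 1, and the other 6 lay between 35.1 and 45.8 CPM. Means were 39.7 ± 8.03 CPM in Hdc-GFPhi and 40.7 ± 4.73 CPM in Hdc-GFPlo (SD, n = 3 and n = 4). The edgeR log2 fold change was -0.04 (SE 0.17, adjusted p = 0.947, with a 95% interval of -0.43 to 0.35). It was 0.12 without Hdc-GFPhi replicate 1 and 0.02 without Hdc-GFPlo replicate 3. Neighbours of Ndn in its imprinted cluster were uneven: Magel2 and Snrpn were listed at 0 in all libraries, and Mkrn3, a ring finger gene, had 102 to 139 counts in Hdc-GFPhi and 25 to 107 counts in Hdc-GFPlo (edgeR log2 fold change 0.94, SE 0.55, adjusted p = 0.526).

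**Figure D3:**
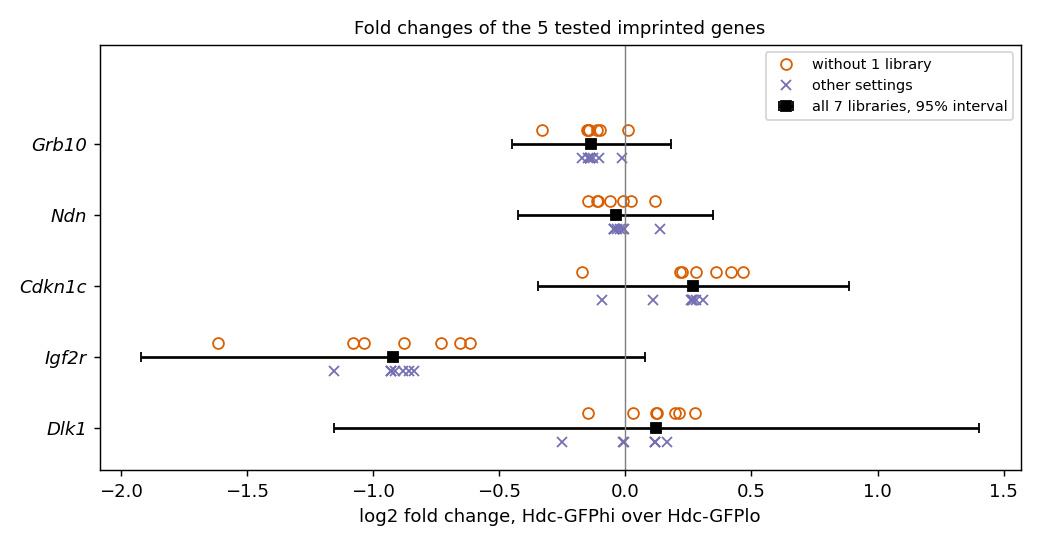
Log2 fold changes of the 5 tested imprinted genes, Hdc-GFPhi over Hdc-GFPlo, with squares and 95% intervals for the edgeR fit of all 7 libraries, circles for fits without 1 library and crosses for the other settings. Every interval includes 0, Igf2r stays below 0 under every setting drawn (-1.62 to -0.62), and the other 4 genes cross 0.

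Levels of different members were compared per kilobase of annotated exon (GENCODE M21). Grb10 averaged 27.5 ± 3.83 CPM per kb over the 7 libraries (SD), and its lowest library (20.5 CPM per kb) lay above every library of every other member. Cdkn1c (11.1 ± 3.58 CPM per kb) and Ndn (10.9 ± 1.56 CPM per kb) followed with overlapping ranges. Igf2r was at 1.86 ± 0.991 CPM per kb and Dlk1 at 0.407 ± 0.0888 CPM per kb, and these ranges did not overlap. H19, Peg3, Igf2, Plagl1 and Meg3 averaged 0.263, 0.0796, 0.0581, 0.0458 and 0.0123 CPM per kb, and their ranges overlapped each other. In its highest library H19 reached 1.49 CPM per kb, within the range of Igf2r. Peg3 and Plagl1 reached 0.349 and 0.320 CPM per kb, within the range of Dlk1 (0.313 to 0.573 CPM per kb). The order depends on which transcript is counted. With the shortest annotated transcript of each gene (for Ndn its shorter RefSeq span, 1652 bases), Grb10 was again highest (51.4 to 81.1 CPM per kb). Ndn reached 18.4 to 27.7 CPM per kb and Cdkn1c 8.79 to 19.4 CPM per kb. Dlk1 (1.70 to 3.12 CPM per kb) then overlapped Igf2r (0.635 to 3.51 CPM per kb). The means of Igf2 (0.469 CPM per kb) and Meg3 (0.273 CPM per kb) then lay above that of H19 (0.263 CPM per kb).

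**Figure D4:**
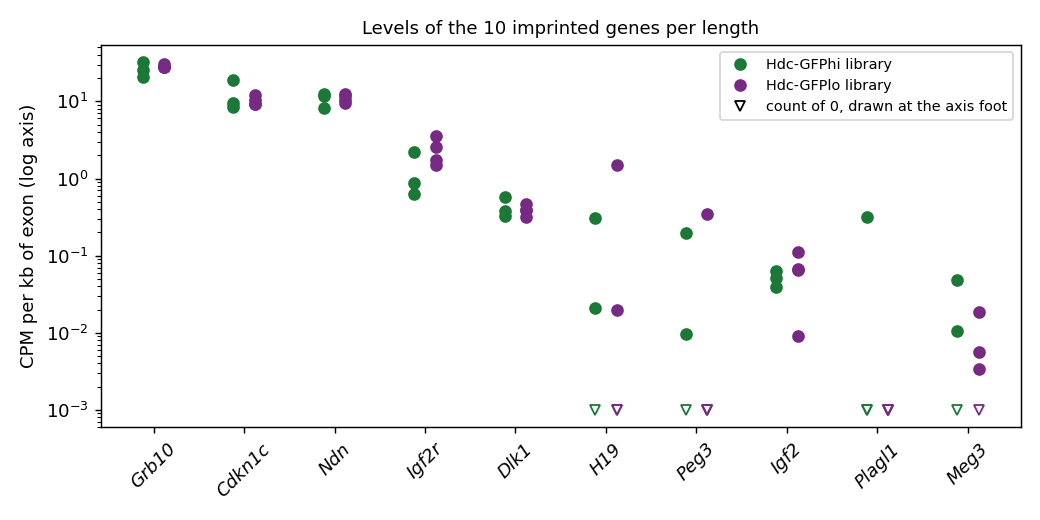
Levels of the 10 imprinted genes as CPM per kilobase of annotated exon (log axis), with 1 point per library, Hdc-GFPhi left of Hdc-GFPlo, and counts of 0 drawn as open triangles at the foot. Grb10 is highest, Cdkn1c and Ndn overlap, and H19, Peg3, Plagl1 and Meg3 have libraries at 0.

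Other imprinted genes were set beside the members. Of 61 listed, 59 were in the table, 17 were listed at 0 in all libraries and 34 were tested, of which 0 passed over all genes. At an unadjusted edgeR p under 0.05, 1 was higher and 2 were lower in Hdc-GFPhi (4.92% and 7.31% of all genes tested were), 17 had higher and 17 lower values, and the median log2 fold change was 0.01. The 3 with the smallest p were Ube3a, the ubiquitin ligase gene (109 ± 2.76 CPM in Hdc-GFPhi and 129 ± 7.99 CPM in Hdc-GFPlo, edgeR adjusted p = 0.319), H13, the signal peptide peptidase gene (308 ± 11.99 CPM in Hdc-GFPhi and 268 ± 18.3 CPM in Hdc-GFPlo, edgeR adjusted p = 0.384), and Impact, a translational regulator (28.0 ± 6.56 CPM in Hdc-GFPhi and 38.9 ± 6.27 CPM in Hdc-GFPlo, edgeR adjusted p = 0.389). Mest, a paternally expressed hydrolase gene, had 41, 60 and 29 counts in Hdc-GFPhi and 71, 51, 49 and 71 counts in Hdc-GFPlo (edgeR log2 fold change -0.63, SE 0.52, adjusted p = 0.659). Peg10, a retrotransposon-derived gene, had 2, 3 and 19 counts in Hdc-GFPhi and 0 in all Hdc-GFPlo libraries, and did not pass the filter. Mest and Peg10 show how far apart the counts of low imprinted genes lay: those of Mest were present in every library, and most of those of Peg10 came from Hdc-GFPhi replicate 3.

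Several neighbours of the members had no counts. Ins2 and Th, beside Igf2, were listed at 0 in all libraries, as were Usp29 and Zim1 beside Peg3 and Kcnq1 beside Cdkn1c. Kcnq1ot1 overlaps Kcnq1 on the opposite strand, and widely expressed or abundant genes such as Snrpn, Hba-a1 and Hbb-b1 were also listed at 0 in every library, so a listed 0 does not show that a gene was silent. Others in the same clusters were well counted. The transporter gene Slc22a3, near Igf2r, had 194 ± 64.4 CPM in Hdc-GFPhi and 196 ± 2.74 CPM in Hdc-GFPlo (SD, n = 3 and n = 4), and the tetraspanin gene Cd81, near Cdkn1c, had 513 ± 44.2 CPM in Hdc-GFPhi and 528 ± 43.8 CPM in Hdc-GFPlo. Their edgeR log2 fold changes were -0.02 (SE 0.18) and -0.04 (SE 0.09). Phactr2, near Plagl1, was at 0.04 (SE 0.13) and Slc22a18, near Cdkn1c, at -0.08 (SE 0.30). Ddc and Cobl, next to Grb10, had at most 9 and 29 counts in any library.

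**Figure D5:**
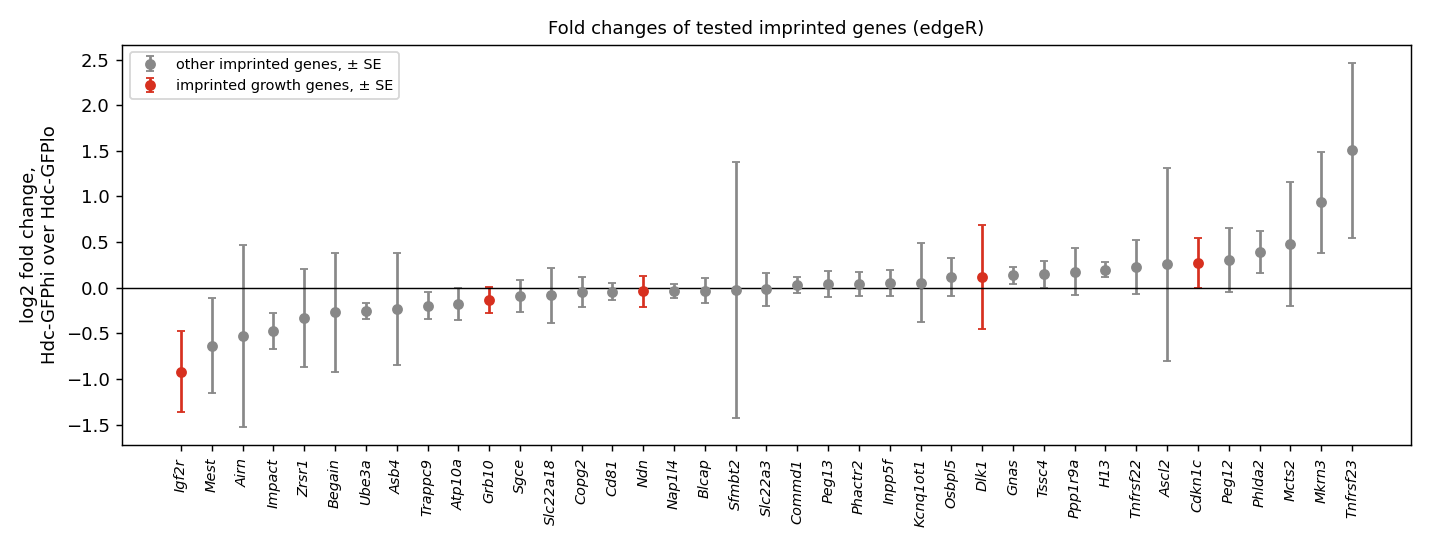
EdgeR log2 fold changes (Hdc-GFPhi over Hdc-GFPlo) ± SE of the 5 tested imprinted growth genes (red) and the 34 other tested imprinted genes (grey), ordered by value. Igf2r is at the low end (-0.92), Cdkn1c is at 0.27, and genes lie about evenly on both sides of 0.

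The signalling axis that Igf2, Igf2r and Grb10 feed into was measured through 29 genes, of which 18 were tested and 0 passed over all genes. At an unadjusted edgeR p under 0.05, 0 were higher and 2 were lower in Hdc-GFPhi (4.92% and 7.31% of all genes tested were), and the median log2 fold change was -0.05. Pik3ca, a catalytic subunit gene of phosphoinositide 3-kinase, had 84.3 ± 5.52 CPM in Hdc-GFPhi and 112 ± 7.70 CPM in Hdc-GFPlo (SD, n = 3 and n = 4), with an edgeR log2 fold change of -0.41 (adjusted p = 0.228). Sos1, an exchange factor for Ras, was at -0.23 (SE 0.12). Igf1r, the receptor that transmits the signal of IGF1 and IGF2, had 61.7 ± 13.9 CPM in Hdc-GFPhi and 58.3 ± 10.7 CPM in Hdc-GFPlo (edgeR log2 fold change 0.08, SE 0.19). The ligand gene Igf1 had 14 to 41 counts in Hdc-GFPhi and 30 to 95 counts in Hdc-GFPlo (-1.28, SE 0.73). The binding protein gene Igfbp4 was at 287 ± 22.5 CPM in Hdc-GFPhi and 281 ± 23.3 CPM in Hdc-GFPlo, while Igfbp1 and Igfbp2 were listed at 0 in all libraries.

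Genes of imprint maintenance, of DNA methylation and its removal, and of related chromatin proteins were measured as well. Of 20 such genes 16 were tested and 0 passed over all genes. At an unadjusted edgeR p under 0.05, 1 was higher and 2 were lower in Hdc-GFPhi (4.92% and 7.31% of all genes tested were), and the median log2 fold change was 0.01. The 3 with the smallest p were Smchd1, a chromatin protein of the inactive X and of imprinted clusters (110 ± 29.2 CPM in Hdc-GFPhi and 156 ± 18.9 CPM in Hdc-GFPlo), Cbx3, a heterochromatin protein (1.53 ± 0.589 CPM in Hdc-GFPhi and 4.25 ± 1.01 CPM in Hdc-GFPlo), and Mbd3, a subunit of the NuRD complex (168 ± 6.12 CPM in Hdc-GFPhi and 143 ± 8.86 CPM in Hdc-GFPlo). Their edgeR adjusted p-values were 0.319, 0.319 and 0.335. Zfp57, which protects imprints in the mouse embryo, was at 2.87 ± 0.190 CPM in Hdc-GFPhi and 1.99 ± 0.772 CPM in Hdc-GFPlo.

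Of 9 genes known from fetal stem cells 7 were tested, 0 passed, and the median log2 fold change was 0.17. Arid3a, Dicer1 and Plag1 had the smallest p, with edgeR log2 fold changes of 0.36 (SE 0.19), -0.19 (SE 0.15) and 0.55 (SE 0.68). Plag1, the zinc finger relative of Plagl1, had 44 to 158 counts in Hdc-GFPhi and 21 to 120 counts in Hdc-GFPlo, and so was present in all libraries where Plagl1 was counted in 1.

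The genes whose log2 CPM followed each member most closely over the 7 libraries, among 10468 compared, were Gpld1 and Nf2 for Grb10 (Pearson's r 0.986 and 0.976), Mettl8 and Mctp2 for Ndn (0.987 and 0.987), Nudt6 and Mpg for Cdkn1c (0.980 and 0.973), and Dnajc14 and Ahctf1 for Igf2r (0.967 and 0.966). With 7 points that share library depth and preparation, and genes chosen for their high r, these values are descriptions.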

How the data were processed

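Per the labels' protocols, RNA of 500 sorted cells was isolated with a PicoPure kit, turned into amplified cDNA (SMARTer Ultra Low Input) and made into libraries with Nextera XT. Per the submitters' processing notes, bcl2fastq 1.8.4, TopHat2, Bowtie2 and HTSeq 0.6.1 were used with build mm9. Neither the annotation nor the strand setting is stated there. Each deposited column holds unnormalized counts of reads, 1 library per column and 1 gene symbol per row, without coordinates. Amplified reads without molecular identifiers are not independent molecules, so floors cover counting error only. Columns were matched to samples by the library code in the description. Totals ranged from 21090553 to 23688672 counts (Hdc-GFPhi) and from 19606124 to 22472061 counts (Hdc-GFPlo). Hdc itself was at 30.1 ± 10.0 CPM in Hdc-GFPhi and 14.7 ± 7.27 CPM in Hdc-GFPlo (SD, n = 3 and n = 4), with overlap.

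edgeR 4.0.16 (R 4.3.3) was used. Low genes were removed by filterByExpr at a minimum count of 10, and the rest were scaled by TMM and tested with robust quasi-likelihood F tests, with group as the only term and Benjamini-Hochberg adjustment over 12917 genes (threshold 0.05). The SE is the log2 fold change over the square root of F, and 95% intervals use its t quantile. DESeq2 1.42.0, limma 3.58.1 voom with quality weights, other scalings and filters, a replicate block and left-out libraries were alternatives. Log2 CPM used a pseudocount of 2. Promoters and miRNAs came from RefSeq (GRCm38.p6, with entries for 8 of the 10 members' promoters) and exon lengths from GENCODE M21, a build other than that of the counts, so they serve for sequence and length only. The shorter length of Ndn was also from RefSeq.

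The members and lists were chosen with earlier results of these data known. All 10 members were named, as were neighbours in their clusters, the 3 lowest unadjusted p-values per list and the 2 genes most like each member with a mean of at least 5 CPM. For the IGF axis, 1 gene that this rule names is not reported here. Peg10, Slc38a4, Igf1r, Igf1, Igfbp1, Igfbp2, Igfbp4, Zfp57, Cdkn1a, Cdkn1b and single marker genes were named after their values were seen.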

Additional observations from a re-analysis of the deposited data

Results flagged for a closer look

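Among the 4 Hdc-GFPlo libraries, 3 members had 1 library far from the others by Dixon's test (the gap to the nearest library over the group's range, at the 95% level), of 9 members with any spread in that group. Chance alone flags about 1 in 20 such groups of normally distributed values, and groups of 3, as Hdc-GFPhi, were not tested. That rate does not hold for H19 and Peg3, whose counts in the group sat almost wholly in 1 library. Of 1235 other genes with 30 to 98 counts in all, 30.5% were at least as concentrated in 1 of the 7 libraries as Peg3 (58.2%). H19 was at 3.41 CPM and Peg3 at 3.04 CPM in Hdc-GFPlo replicate 2, against at most 0.0446 CPM of H19 and 0 of Peg3 in the other 3 libraries of the group. The stromal markers Lepr, Dcn and Postn were also highest in that library. Col1a2, Pdgfrb and the summed stromal level (34.9 CPM) were each at their lowest CPM of the 4 Hdc-GFPlo libraries there. The part of stromal cells was not tested. Grb10 was at 157 CPM in Hdc-GFPlo replicate 1, against 143 to 144 CPM in the other 3.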

How the results depend on the processing

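No member was called under any of the 15 alternatives run, and edgeR and limma called 0 of all genes under each of theirs, while DESeq2 called 344. At an unadjusted p under 0.05 the main edgeR fit had 635 higher and 944 lower genes, and library totals as the only scaling gave 826 and 768. Igf2r kept lower values throughout (-1.62 to -0.62 over fits without 1 library, edgeR or other adjusted p 0.263 to 0.753 over all alternatives). Its unadjusted p was under 0.05 with DESeq2 (0.0374) and in 3 edgeR fits, and above 0.05 in the other alternatives. Those edgeR fits were the replicate block (0.0205), without Hdc-GFPhi replicate 2 (0.00308) and without Hdc-GFPlo replicate 3 (0.0462). The signs of the other members turned. Without 1 library the values ranged from -0.15 to 0.28 for Dlk1, -0.33 to 0.010 for Grb10, -0.15 to 0.12 for Ndn and -0.17 to 0.47 for Cdkn1c. Leaving out both replicate 1 of Hdc-GFPhi and replicate 4 of Hdc-GFPlo, they were -0.25 for Dlk1, 0.14 for Ndn and -0.09 for Cdkn1c. Dlk1 was at -0.010 with limma, and it did not pass the stricter filter, which gives no value. The causes were not tested. With a replicate block on replicates 1 to 3, Dlk1 was at -0.0060, Igf2r at -1.16 (edgeR adjusted p = 0.340), and 0 genes were called. Deviations from the group means correlated at r -0.06, -0.01 and -0.14 for same-numbered libraries, and at -0.12 to 0.13 for differently numbered ones. With so few pairs, these values cannot show whether same-numbered libraries share an animal or a sort. Grb10 had an unadjusted edgeR p of 0.0188 without Hdc-GFPhi replicate 3 (adjusted p = 0.253). Counts limit H19, Igf2, Meg3, Peg3 and Plagl1. In the edgeR fit without a filter, Plagl1, counted in 1 library, had an unadjusted p of 0.041 (adjusted p = 0.427).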
